A study of Mus musculus with 25 samples.

Results

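The knock-in podocytes at 2 weeks of age were compared with control podocytes of the same age. The members are the 4 arrays titled as 2-week knock-in samples and the 4 titled as 2-week controls, 8 of the 25 arrays in the series, and they were chosen by title alone. The knock-in mice (KI) carried Actn4tm1.1Plk, a point-mutant allele of alpha-actinin-4, and the controls (WT) were wild type for Actn4. The labels name Actn4+/tm1.1Plk mice as the parents and do not give the number of mutant alleles in the sampled KI mice. Both groups carried the Col1a1-eGFPL10a transgene on a C57/129sv background and were taken at postnatal day 14, with sex labelled unknown. The other arrays were KI and WT samples of 5 weeks (4 KI and 5 WT) and 44 weeks (4 of each). The labels do not state whether 1 animal stands behind each array, and the p-values cover only the spread among the arrays, part of which may be technical.

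Podocytes are the epithelial cells that wrap the glomerular capillaries, and their interdigitating foot processes, bridged by slit diaphragms, form the outer layer of the kidney filter. Alpha-actinin-4 crosslinks actin filaments in these foot processes, and mutations that make it bind actin more tightly cause a familial form of focal segmental glomerulosclerosis. In the mouse the kidney is still maturing in the first weeks after birth, when podocytes and their neighbours lay down collagen, laminin and elastic matrix and then reduce these transcripts. Translating ribosome affinity purification (TRAP) pulls down ribosomes tagged with eGFP-L10a, here expressed from a collagen 1 alpha 1 promoter element, together with the messenger RNA they carry. That element sets which cells are sampled: podocytes, and any other cell in which it is active.

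Values are log2 intensities, 1 per probe set, so a difference of 1 is a ratio of 2. Actn4 has no named probe set in the annotation used here, so the targeted gene gives no check of the genotype labels. Podocyte transcripts were bright in both groups: Wt1, the podocyte transcription factor, averaged 12.07 ± 0.09 in KI and 12.05 ± 0.09 in WT, and Podxl, which encodes the surface sialoprotein podocalyxin, averaged 12.60 ± 0.06 in KI and 12.60 ± 0.07 in WT (SD, n = 4 each). Transcripts of other kidney cells were present as well, and their level differed between arrays. The sexes were unevenly spread: the 4 WT arrays and KI array 20 had a high mean of 4 Y-linked genes, between 6.48 and 6.80 in WT, while Xist, which is transcribed from the inactive X chromosome, was at 6.17, 5.71 and 7.06 in KI arrays 19, 21 and 22 against 4.28 to 4.75 in WT. Sex was added as a covariate to the fits of KI against WT at 2 weeks and of its difference from the later ages, but not to the counts of genes with non-overlapping arrays or to WT at 5 against 2 weeks. In the Gapdh control probe sets the 3′ signal exceeded the 5′ signal by 1.45, 1.15, 1.18 and 1.06 in KI and by 1.84, 1.65, 1.58 and 1.55 in WT, a difference of -0.44 with no overlap (exact two-sided permutation test, p = 0.029, the smallest that 4 against 4 can give; adjusted p = 0.14 over 5 array measures). The same measure in the actin controls differed by -0.03 (exact p = 0.8).

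No single gene differed beyond the spread between arrays after adjustment, and the leading candidates were Gadd45g, F13b and Dmpk on the higher side and Eml2 and Zfp687 on the lower. Of 11968 genes tested, 0 passed an adjusted p of 0.05 in KI against WT at 2 weeks (0%; limma with Benjamini-Hochberg adjustment; lowest adjusted p = 0.257), and 613 genes (5.12%) had an unadjusted p under 0.05, 283 of them higher (2.36%) and 330 lower in KI (2.76%). The number under 0.05 changed to 1401 with sex as a covariate, 350 with the tubule marker mean as a covariate, 286 without KI array 22, 295 without WT array 1 and 1083 without WT array 3, and in each of these fits 0 genes passed. All 4 KI arrays lay outside the range of the 4 WT arrays for 347 genes (2.90%), 139 above it (1.16%) and 208 below it (1.74%). Without any single array, where 4 arrays stand against 3, this count was 507 (KI array 22 left out) to 1011 (KI array 20 left out). The median absolute difference was 0.13, and a gene with the median standard error of 0.18 had an unadjusted 95% interval of ± 0.37 around its difference. At 5 weeks 2638 genes (22.0%) passed the same test, and at 44 weeks 3 did (0.0251%). The median absolute differences there were 0.28 and 0.13.

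The gene with the smallest p was Gadd45g, a stress-inducible gene of the Gadd45 family, which acts in growth arrest and p38 signalling. Its values were 10.30, 9.09, 9.71 and 10.25 in KI arrays 19 to 22, against 7.86, 8.32, 8.40 and 8.70 in WT arrays 1, 2, 3 and 5. Every KI array was above every WT array, and KI array 20, the lowest of its group, was also the only KI array with a high Y-linked signal. The difference was 1.52 ± 0.28 (SE), a ratio of 2.87, with an adjusted p of 0.26 by limma. It was 1.21 with sex as a covariate and 1.77, with adjusted p = 0.031, without KI array 20. Leaving out the lowest KI array raises the difference by itself. Without that array sex and genotype cannot be told apart at 2 weeks. The other members of the family did not share the difference of Gadd45g: Gadd45a differed by -0.16 ± 0.10 and Gadd45b by -0.12 ± 0.38, and in both the groups overlapped.

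F13b, Acacb and Stat5a came next on the higher side, apart from the neighbours of Actn4. F13b, the carrier subunit of coagulation factor XIII, had 6.90, 6.93, 7.30 and 7.90 in KI and 5.68, 5.60, 5.51 and 6.56 in WT, a difference of 1.42 ± 0.30 (limma adjusted p = 0.53). Acacb, the mitochondrial acetyl-CoA carboxylase that restrains fatty acid oxidation, had 8.72, 8.16, 8.23 and 9.17 in KI and 7.61, 6.76, 7.39 and 7.51 in WT (1.25 ± 0.31). Stat5a, a cytokine-activated transcription factor, had 8.71, 8.65, 8.98 and 9.09 in KI and 7.97, 8.38, 8.47 and 8.14 in WT (0.62 ± 0.15). In these 3 genes no KI array fell into the WT range. The mean of tubule markers was also higher in KI, and with it as a covariate the differences were 0.77 for F13b and 0.63 for Acacb; the part of tubule RNA in them was not tested further. Vav3 was higher by 0.85 ± 0.22, Eva1a, an autophagy regulator, by 0.77 ± 0.21 (0.50 with the tubule marker covariate), and Slc22a5, the carnitine transporter, by 0.44 ± 0.13, all with no overlap. Folh1, a brush-border carboxypeptidase, was higher by 1.41 ± 0.39 with 1 WT array inside the KI range. Limma's adjusted p was 0.89 for each gene after F13b and Dmpk, the last of which is described with the neighbours of Actn4.

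On the lower side, apart from Eml2 near Actn4, the genes with the smallest p had varied roles. Zfp687, a zinc finger protein, had 7.57, 7.44, 7.31 and 7.13 in KI and 8.04, 7.83, 7.85 and 7.76 in WT, a difference of -0.51 ± 0.12. Cdkn2d, an inhibitor of the cyclin D kinases, had 7.86, 7.92, 7.52 and 7.39 in KI and 8.60, 8.18, 7.96 and 7.98 in WT (-0.51 ± 0.13). Clasp1, which stabilises microtubule plus ends, had 9.47, 9.49, 9.00 and 9.02 in KI and 10.25, 9.86, 9.56 and 9.60 in WT (-0.57 ± 0.16). The groups did not overlap in any of these, and in all 3 WT array 1 was the highest. Wdr92, a factor of dynein arm assembly, differed by -0.55 ± 0.14, Hspb8, a small heat shock protein, by -0.44 ± 0.12, and Phf13, a chromatin reader, by -0.45 ± 0.13, again with no overlap. Gabrb1, a GABA receptor subunit, differed by -1.04 ± 0.30 and Nab2, a corepressor of Egr factors, by -0.56 ± 0.16, and each had overlapping arrays. Epha2, an ephrin receptor, had 5.43, 5.25, 5.28 and 5.35 in KI and 6.42, 6.31, 5.64 and 6.06 in WT (-0.78 ± 0.25), and its KI arrays were the more alike. Stambpl1, a deubiquitinase, and Adamtsl1, a secreted matrix protein, differed by -0.81 ± 0.25 and -0.76 ± 0.30 with no overlap.

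**Figure D1:**
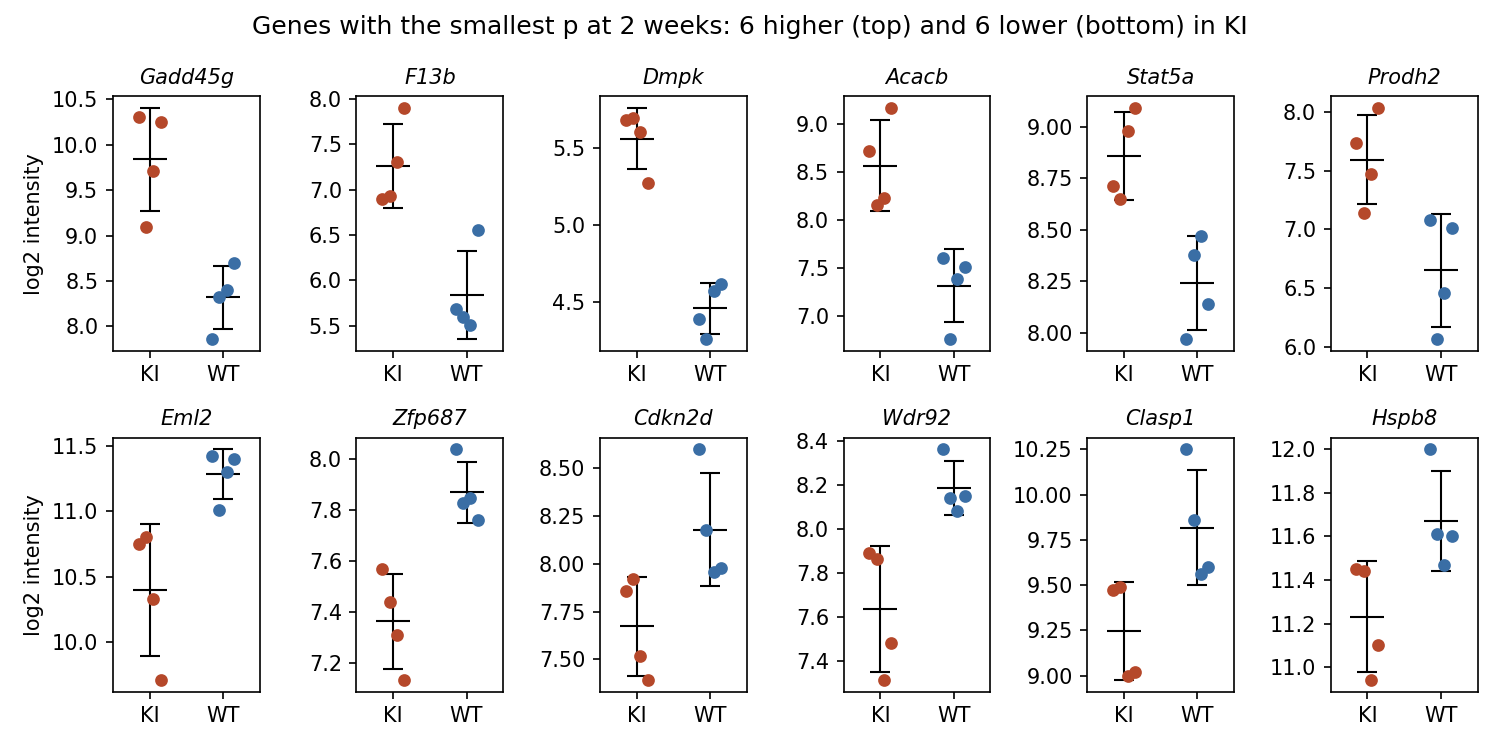
Log2 intensity (y axis) of the 6 genes with the smallest p on the higher side (top) and the 6 on the lower side (bottom) in each array, KI left and WT right; points are arrays, bars the mean and SD (n = 4 each). In all 12 genes the 4 KI arrays lie outside the range of the 4 WT arrays, from Gadd45g at 9.09 to 10.30 in KI against 7.86 to 8.70 in WT to Zfp687 at 7.13 to 7.57 in KI against 7.76 to 8.04 in WT.

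The leading genes were looked up at the later ages, whose arrays are not part of the 2-week difference but did enter the choice of genes through the shared variance estimate and the choice of probe sets. Of the 12 named genes with the smallest p on the higher side, 10 were also higher in KI at 5 weeks and 4 of these passed there (F13b, Dmpk, Acacb and Prodh2), where 14.3% of all genes passed in that direction. Dmpk passed the filter on dim genes only through its KI arrays, as described with the neighbours of Actn4. Of the 12 on the lower side, 9 were lower at 5 weeks and 2 passed (Eml2 and Phf13), against 7.75% of all genes. At 44 weeks 9 and 9 had the same sign and 0 passed. Gadd45g differed by 0.37 at 5 weeks (adjusted p = 0.33) and by 0.41 at 44 weeks (adjusted p = 0.9). Stat5a and Vav3 had the opposite sign at 5 weeks, at -0.32 and -0.21. Across all 11968 genes the differences at 2 weeks correlated with those at 5 weeks at r = 0.31 and with those at 44 weeks at r = 0.27 (Pearson, across genes, which are not independent; no array is shared between these comparisons).

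Genes that lie near Actn4 on chromosome 7 had non-overlapping arrays more often than all genes, although none of them passed the test. Gene positions are from the RefSeq annotation of GRCm38.p6, used only for which genes neighbour each other. Within 20 Mb of Actn4, 25 of 346 genes tested (7.23%) had arrays that did not overlap, 8 higher and 17 lower in KI, against 2.90% of all genes. The share was 7.59% of 145 genes within 5 Mb, 9.22% of 206 within 10 Mb and 6.61% of 439 within 40 Mb, and it was 2.54% of the 472 genes of chromosome 7 beyond 40 Mb. Chromosome 7 as a whole had 4.50%, the highest of the 19 autosomes and the X chromosome, which otherwise ran between 1.62% and 4.18%. Without WT array 3 the share near Actn4 was 11.0% against 8.04% of all genes, and without KI array 20 it was 11.8% against 8.45%, so the excess was smaller there than in the 8 arrays together. No test was made of this share.

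Of the 5 genes in the 20 Mb window with an unadjusted p under 0.01, 4 are named and 1 is a predicted gene. Dmpk, the myotonic dystrophy protein kinase, had 5.68, 5.69, 5.60 and 5.27 in KI and 4.39, 4.26, 4.57 and 4.62 in WT, a difference of 1.10 ± 0.24 (limma adjusted p = 0.58). The values are dim, and the spread within each group was small. The filter on dim genes dropped those with a mean below 4.603 over the 25 arrays, and Dmpk passed it only through its KI arrays. Its WT mean was 4.46 at 2 weeks, 4.49 at 5 weeks and lower still at 44 weeks. The differences of Dmpk at all ages are therefore taken against a WT signal below that limit. At 5 weeks Dmpk was higher in KI by 1.42 (adjusted p = 0.0014) and at 44 weeks by 0.96 (adjusted p = 0.48). Eml2, a microtubule-associated protein that lies close to Dmpk, had 10.75, 10.80, 10.33 and 9.71 in KI and 11.42, 11.01, 11.30 and 11.40 in WT, a difference of -0.88 ± 0.21. It was lower in KI by the same margin at 5 weeks (-0.87, adjusted p = 0.0065) and differed by -0.52 at 44 weeks (adjusted p = 0.73). Prodh2, the hydroxyproline dehydrogenase of proximal tubule and liver mitochondria, had 7.73, 7.14, 7.47 and 8.03 in KI and 7.08, 6.07, 6.46 and 7.01 in WT (0.94 ± 0.24), with differences of 1.61 at 5 weeks (adjusted p = 0.00058) and 0.75 at 44 weeks (adjusted p = 0.65). Proximal tubule genes as a list were also higher in KI at 2 weeks, and with the tubule marker covariate Prodh2 was at 0.57. Opa3, a mitochondrial membrane protein and another neighbour of Dmpk, had 8.74, 8.61, 8.68 and 8.75 in KI and 8.22, 7.80, 8.54 and 8.45 in WT (0.44 ± 0.14), but differed by -0.01 at 5 weeks, and its 3 dimmer probe sets differed by -0.12, -0.02 and -0.09 at 2 weeks. Of the 25 non-overlapping genes near Actn4, 12 had the same sign at 5 weeks (48%) and 20 at 44 weeks (80%). The shares of the other 322 non-overlapping genes were 60.9% and 68.9%. At 5 weeks 7 of the 25 passed with the same sign, against 54 of the other 322, and at 44 weeks 0 of either did. Over all genes 14.3% passed at 5 weeks as higher in KI and 7.75% as lower. The 22.0% that passed in either direction is not a like share for counts with the same sign. For these neighbours an effect of the allele on nearby genes and of chromosome 7 sequence that came with it cannot be told apart in this design.

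**Figure D2:**
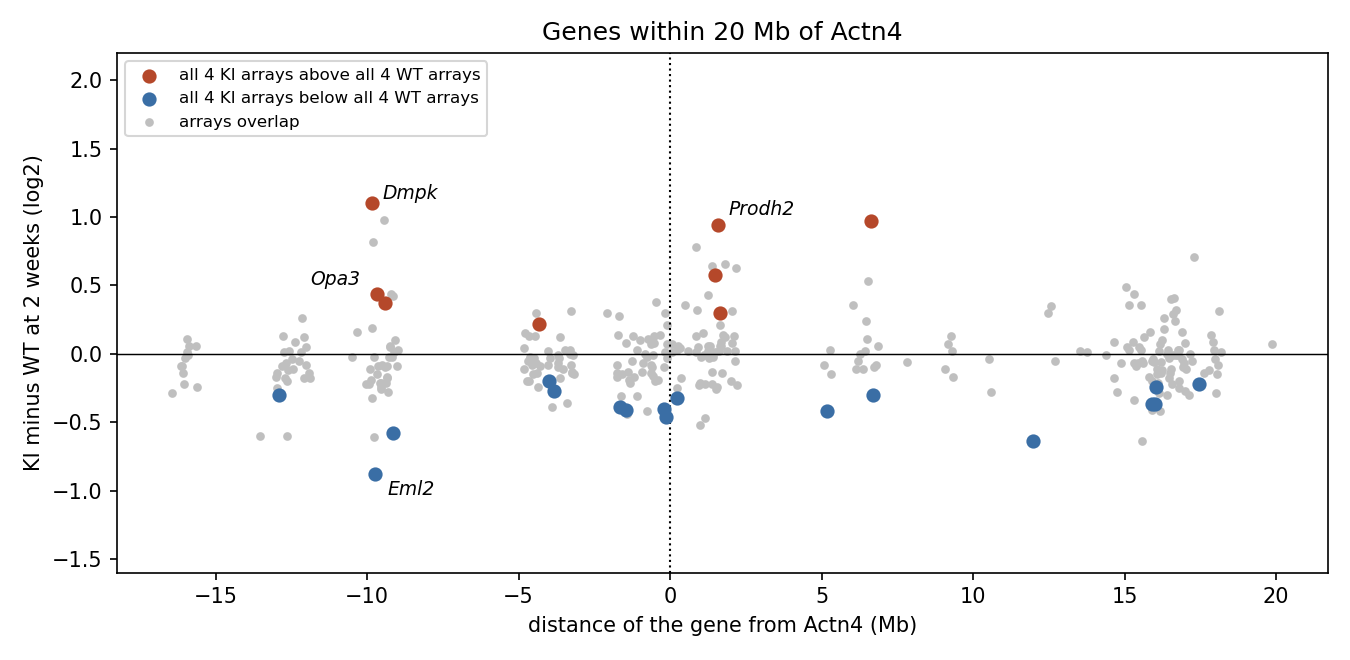
KI minus WT at 2 weeks (log2, y axis) of the 346 tested genes within 20 Mb of Actn4, by distance from Actn4 (Mb, x axis); red and blue points are genes whose KI arrays all lie above or all below the WT arrays, grey points the rest. There are 8 red and 17 blue genes, and Dmpk (1.10) and Eml2 (-0.88) stand out at about the same distance on one side.

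Podocyte genes were near the WT level, most of them slightly below it. Of 35 podocyte identity genes tested, 31 were below 0 and 4 above, with a median difference of -0.14, where the median of all genes was -0.023 and 44.7% were above 0. None passed the test. The array means of the list were 10.11, 10.14, 10.04 and 9.95 in KI and 10.43, 10.10, 10.10 and 10.19 in WT, so WT array 1 was the highest and the other arrays overlapped. Without WT arrays 1 and 2, an alternative chosen after seeing the data, the median was -0.07. With the tubule marker mean as a covariate it was -0.03. In bulk RNA of this kind fewer cells of a type and less RNA per cell cannot be told apart.

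Within the list, Cdkn1c, the cyclin-kinase inhibitor p57 that marks podocytes after they leave the cell cycle, had 11.79, 11.68, 11.74 and 11.26 in KI and 12.33, 11.89, 11.95 and 12.01 in WT, a difference of -0.42 ± 0.15 (limma adjusted p = 0.89). It was the only one of the 35 whose groups did not overlap. That is close to the share of all genes, of which 2.90% did not overlap. Thsd7a, an antigen in membranous nephropathy, differed by -0.31 ± 0.14, Npr3, the natriuretic peptide clearance receptor, by -0.28 ± 0.13, and Tcf21, a transcription factor needed for podocyte maturation, by -0.24 ± 0.11. Tcf21 had a narrow KI group, at 11.57, 11.68, 11.58 and 11.58, against 11.82, 12.12, 11.76 and 11.67 in WT. With the tubule marker covariate Cdkn1c was at -0.37, Tcf21 at -0.15, Thsd7a at -0.08 and Npr3 at -0.04. Of 16 slit diaphragm and polarity genes 7 were above 0 and 9 below (median -0.07). Kirrel, which encodes the nephrin partner Neph1, differed by -0.45 ± 0.27, and Iqgap1, a scaffold that binds nephrin, by 0.70 ± 0.31, both with overlapping arrays, and with the tubule marker covariate they were at -0.02 and 0.06. In 2 of the 16 the arrays did not overlap, both lower in KI (208 of all genes, 1.74%, were so), and they are named here after their values were seen. Tjp1, the tight junction scaffold ZO-1, had 11.09, 11.13, 11.21 and 11.22 in KI and 11.48, 11.38, 11.27 and 11.27 in WT (-0.19 ± 0.10). Pard6b, of the Par polarity complex, differed by -0.20 ± 0.14, and by 0.00 with the tubule marker covariate. Of 22 regulators of podocyte development 5 were above 0 and 17 below (median -0.10).

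Genes of the actin cytoskeleton, the system in which alpha-actinin-4 works, had no common direction. Of 28 crosslinkers and bundlers 18 were above 0 and 10 below (median 0.10), and of 50 genes of actin assembly and myosin 20 were above 0 and 30 below (median -0.02). Actn1, the closest relative of Actn4 in non-muscle cells, had 10.50, 10.02, 10.08 and 10.94 in KI and 10.30, 9.83, 10.07 and 10.10 in WT, a difference of 0.31 ± 0.24 with overlapping groups. Sptbn1, a spectrin, differed by 0.65 ± 0.28, Myo6, a minus-end-directed myosin, by 0.90 ± 0.41 and Lcp1, the bundling protein L-plastin, by 1.48 ± 0.80. Myh9, the non-muscle myosin IIA heavy chain, had 11.00, 9.37, 10.59 and 11.54 in KI and 10.28, 8.77, 9.70 and 9.94 in WT (0.95 ± 0.54). In Myh9 the highest array was KI array 22 and the lowest WT array 2. KI array 22 was also the highest of the 8 in the mean of tubule markers and WT array 2 the lowest, and with that mean as a covariate the differences of Actn1, Sptbn1, Myo6, Lcp1 and Myh9 had the opposite sign (-0.15, -0.05, -0.10, -0.44 and -0.23). Below WT were Inf2, a formin mutated in another familial glomerulosclerosis (-0.34 ± 0.15), and Arpc1a, a subunit of the Arp2/3 complex (-0.33 ± 0.13). Tns1, which ties actin to integrins, had 11.45, 11.33, 11.60 and 11.70 in KI and 10.88, 10.95, 11.24 and 11.31 in WT (0.43 ± 0.17), with no overlap, and it was higher by 0.75 at 5 weeks (adjusted p = 0.0045). With the tubule marker covariate its difference at 2 weeks was 0.09.

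Matrix genes were mostly lower in KI, by amounts within the spread between arrays. Of 24 genes of interstitial collagens and their processing 23 were below 0 and 1 above (median -0.36), of 29 elastic fibre and matricellular genes 25 were below and 4 above (median -0.31), and of 16 stromal genes 14 were below and 2 above (median -0.27). None of these passed, and 0 had arrays that did not overlap, against 2.90% of all genes (1.74% lower in KI). In lists of this size a count of 0 is near that share. The collagen list averaged 8.10, 8.29, 8.28 and 7.83 in KI and 8.93, 8.53, 8.14 and 8.27 in WT. WT arrays 1 and 2 were the highest and KI array 22 the lowest, while KI arrays 20 and 21 were level with WT arrays 3 and 5. Leaving out single arrays kept the medians below 0, between -0.44 and -0.20 for the collagen list, -0.45 and -0.20 for the elastic fibre list and -0.43 and -0.18 for the stromal list. The excess of 3′ over 5′ Gapdh signal separated the groups, while the same measure in the actin controls differed by -0.03. In WT, array 1 had the highest Gapdh excess (1.84) and the highest collagen mean. In KI, array 22 had the lowest excess (1.06) and the lowest collagen mean (7.83). KI array 19 had the highest excess of its group (1.45), and its collagen mean was below those of arrays 20 and 21 (excess 1.15 and 1.18). With the Gapdh excess as a covariate the medians of the collagen, elastic fibre and stromal lists were -0.11, -0.13 and -0.09. With array weights they were -0.16, -0.08 and -0.08. Without WT arrays 1 and 2 they were -0.07, -0.02 and -0.04, but these arrays were chosen for their high values in the same lists, so a smaller difference follows from the choice. The part of RNA quality in the lower level was not tested further.

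**Figure D3:**
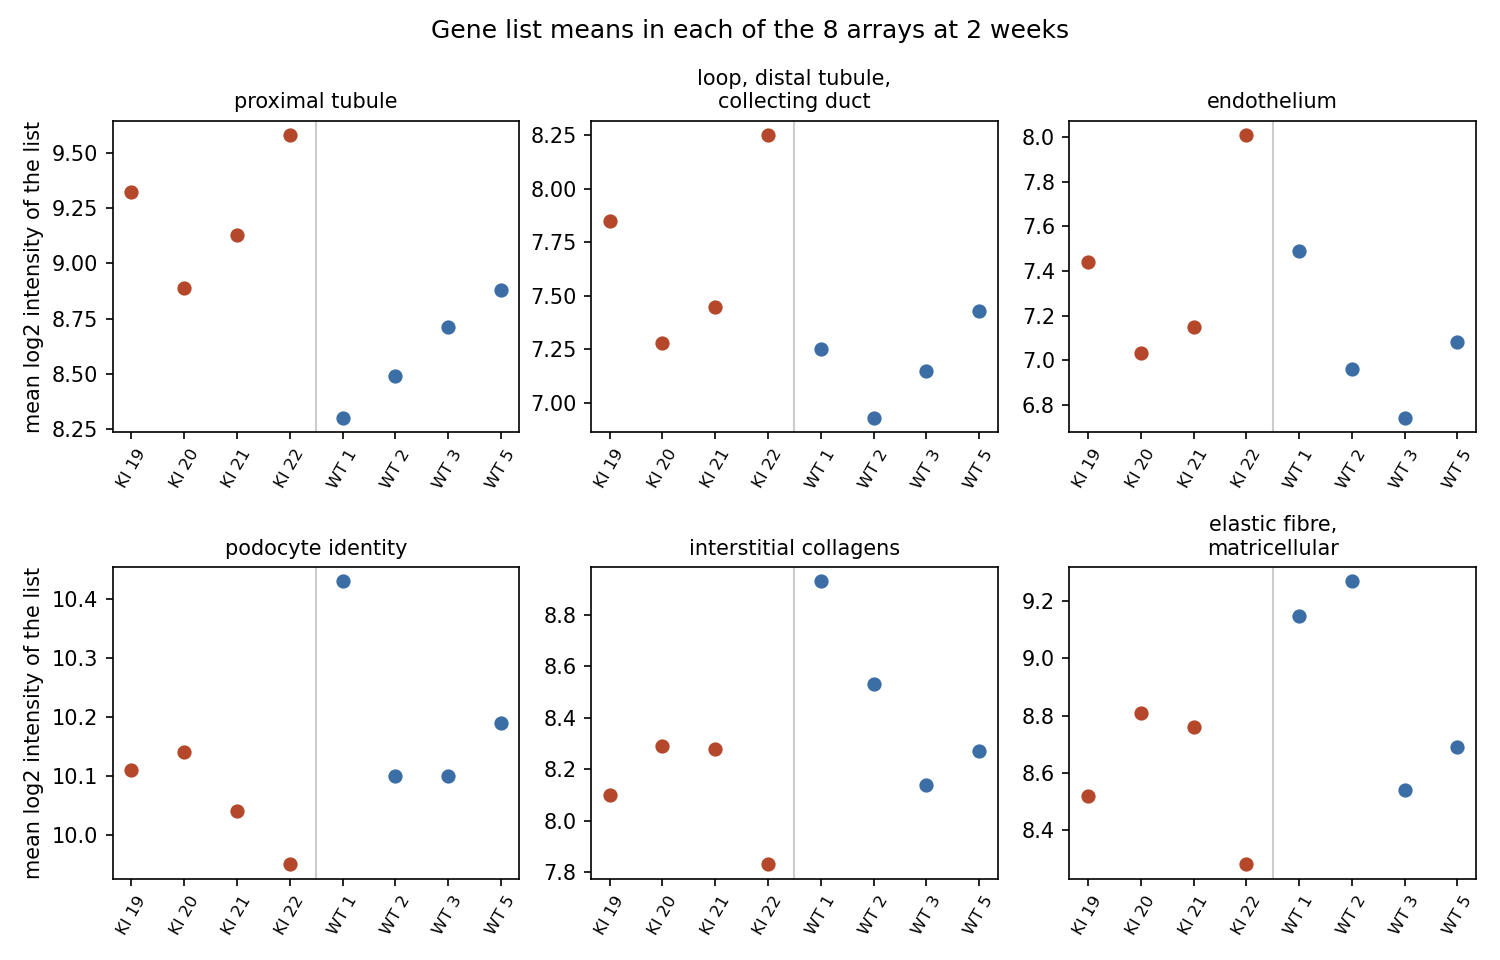
Mean log2 intensity (y axis) of 6 gene lists in each of the 8 arrays at 2 weeks (x axis; KI left, WT right of the grey line). KI array 22 is highest in the 3 upper lists, at 9.58 for proximal tubule and 8.01 for endothelium, and lowest in the 3 lower ones, and WT array 1 is highest in podocyte identity (10.43) and interstitial collagens (8.93).

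Single matrix genes show the same arrays apart. Postn, which encodes periostin of growing and wounded stroma, had 8.44, 8.82, 8.79 and 7.26 in KI and 9.00, 10.58, 8.82 and 8.52 in WT (-0.90 ± 0.44), so that WT array 2 and KI array 22 held the extremes. Col1a1, whose promoter element drives the tag, had 11.02, 11.42, 11.55 and 10.72 in KI and 11.90, 11.77, 11.37 and 11.53 in WT (-0.46 ± 0.41). With the Gapdh covariate Col1a1 was at -0.09. Col16a1, a fibril-associated collagen, differed by -0.57 ± 0.23, Lox, which crosslinks collagen and elastin, by -0.61 ± 0.35 and Mfap2, of elastic microfibrils, by -0.51 ± 0.29. Fn1, fibronectin, and Eln, elastin, both named after their values were seen, differed by -0.58 ± 0.36 and -0.45 ± 0.28, and by -0.21 and -0.25 with the Gapdh covariate. Of 24 matrix proteases and inhibitors 9 were above 0 and 15 below (median -0.15), with differences from -0.79 to 1.11. Among the lower ones Mmp9 had 5.19, 5.15, 5.31 and 4.59 in KI and 6.91, 5.85, 4.89 and 5.74 in WT (-0.79 ± 0.26). Mmp14, a membrane-bound collagenase, differed by -0.66 ± 0.27. WT array 1 was the highest in both proteases, and the groups overlapped.

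The glomerular basement membrane is built of type IV collagen, laminin, nidogen and proteoglycans, and podocytes make much of it. Of 22 such genes 17 were below 0 and 5 above (median -0.13). Nid1, a linker between laminin and collagen IV, differed by -0.34 ± 0.21 and Pxdn, the peroxidase that crosslinks collagen IV, by -0.32 ± 0.19. Without WT arrays 1 and 2 both were at 0.01. The collagen IV chain of the mature membrane, Col4a3, averaged 11.01 ± 0.16 in KI and 11.12 ± 0.26 in WT, and the fetal and mesangial chain, Col4a1, 11.40 ± 0.23 in KI and 11.56 ± 0.18 in WT (SD, n = 4 each). Of the 22 genes, 1 was higher and 1 lower in KI with no overlap, against 1.16% and 1.74% of all genes. Lamb1, a laminin beta chain named here after its values were seen, had 10.35, 10.29, 10.34 and 9.95 in KI. In WT it had 10.43, 10.49, 10.44 and 10.40 (-0.20 ± 0.27, no overlap). Among the genes higher in KI were 2 laminin alpha chains. Lama1, the chain of the earliest kidney basement membranes, had 6.75, 6.37, 6.47 and 6.94 in KI and 5.81, 5.73, 6.06 and 6.18 in WT (0.69 ± 0.41, no overlap), and it passed at 5 weeks (1.24, adjusted p = 0.028). Lama3 had 6.28, 6.14, 6.38 and 6.50 in KI and 4.98, 5.13, 6.20 and 6.09 in WT (0.72 ± 0.48). With the tubule marker mean as a covariate these were -0.19 and -0.26.

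**Figure D4:**
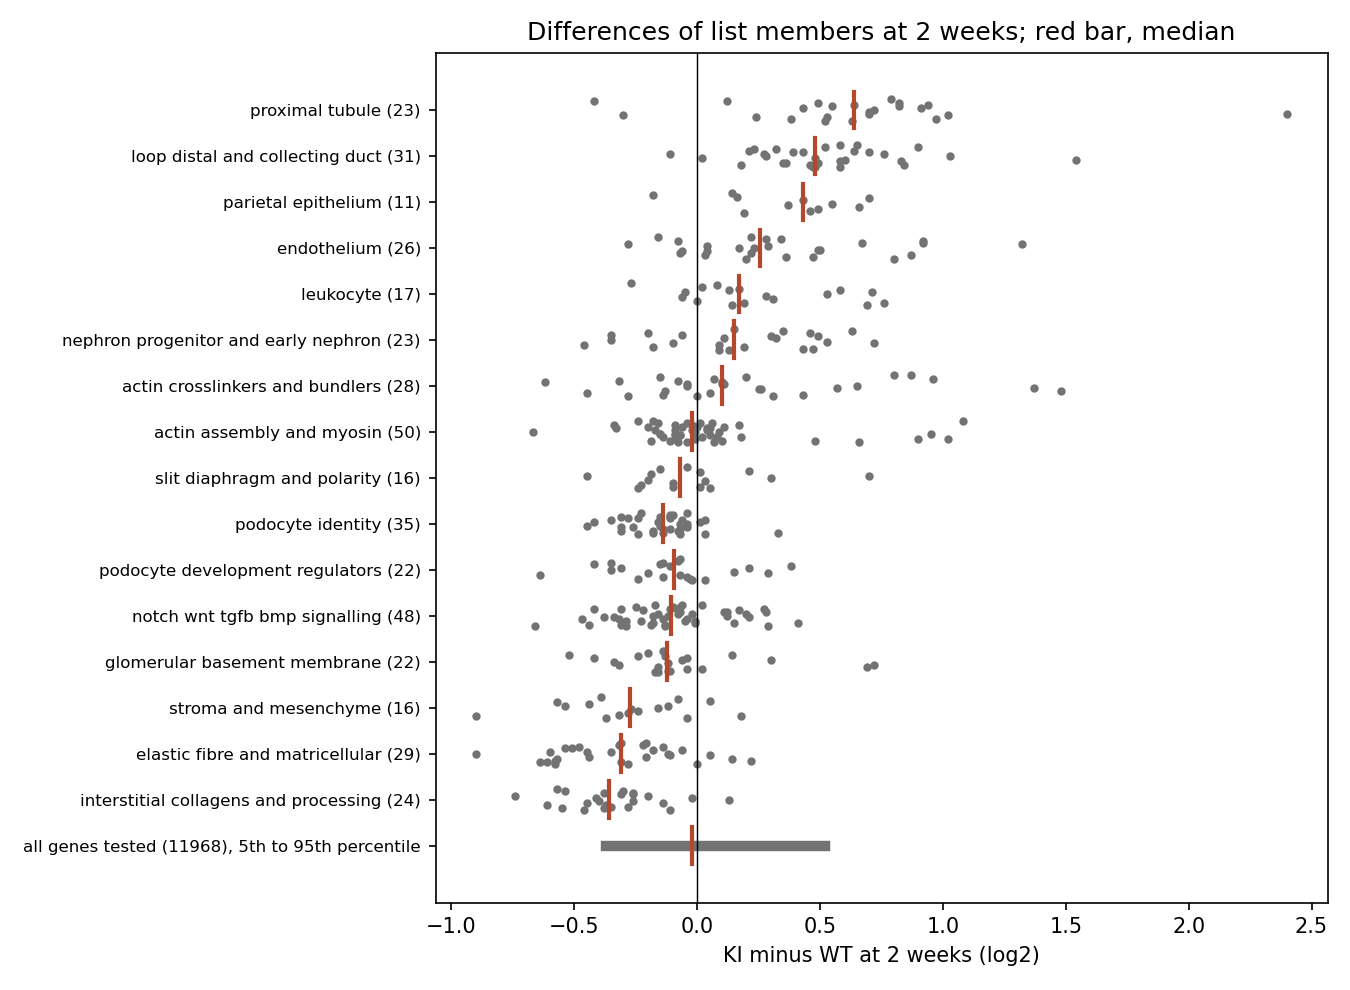
KI minus WT at 2 weeks (log2, x axis) of the tested members of 16 gene lists (grey points; number of genes in brackets), with the median in red; the lowest line gives the 5th to 95th percentile of all 11968 genes. Medians run from 0.64 for proximal tubule to -0.36 for interstitial collagens.

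Developmental genes had no common direction across the lists, and none passed. Of 23 nephron progenitor and early nephron genes 16 were above 0 and 7 below (median 0.15), and of 13 ureteric bud genes 9 were above and 4 below (median 0.35). Both medians moved with the settings: without WT array 1 they were 0.02 and 0.08, with the Gapdh covariate 0.05 and 0.03, and without the filter on dim genes 0.09 and 0.03. Irx2, a patterning factor of the early nephron tubule, had 7.56, 6.76, 7.44 and 7.28 in KI and 4.56, 7.05, 7.32 and 7.22 in WT, so its difference of 0.72 ± 0.38 came from WT array 1 alone, and without WT arrays 1 and 2 it was -0.01. Hoxa11, which patterns the metanephric mesenchyme, had 7.67, 7.72, 7.65 and 6.99 in KI and 8.19, 8.51, 7.74 and 7.43 in WT (-0.46 ± 0.25). Spry1, which restrains GDNF and FGF signalling, differed by -0.65 ± 0.37. Of 48 genes of the Notch, Wnt, TGF-beta and BMP pathways 12 were above 0 and 36 below (median -0.11). Bambi, a decoy receptor for TGF-beta ligands, differed by -0.47 ± 0.20, Smad6, an inhibitory Smad, by -0.44 ± 0.20, and Smad4, the common partner of receptor-activated Smads, by -0.29 ± 0.12, each with overlapping arrays. A second Smad4 probe set, about as bright (mean 10.36 against 10.37), differed by -0.06, and a dimmer one (7.52) by -0.5.

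Most matrix genes fell in WT between 2 and 5 weeks. In WT at 5 against 2 weeks 4053 genes passed (33.9%), 1457 higher (12.2%) and 2596 lower (21.7%) at 5 weeks. Of the 24 collagen genes 19 fell and 0 rose (median -1.37), of the 29 elastic fibre genes 21 fell and 1 rose (median -1.22), and of the 22 basement membrane genes 12 fell and 1 rose (median -0.82). The log2 changes were -3.37 for Postn, -2.71 for Eln, -2.42 for Col1a1 and -2.41 for Fn1 (limma adjusted p = 1.4e-05, 2e-06, 0.00013 and 4.6e-05). This comparison uses the WT arrays of 2 weeks, including arrays 1 and 2. Between KI and WT the same collagen list had a median of -0.36 at 2 weeks and 0.40 at 5 weeks. At 5 weeks 2 of the 24 passed, both higher in KI, which is below the 14.3% of all genes that passed in that direction. The KI and WT arrays at the 2 ages are separate sets.

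**Figure D5:**
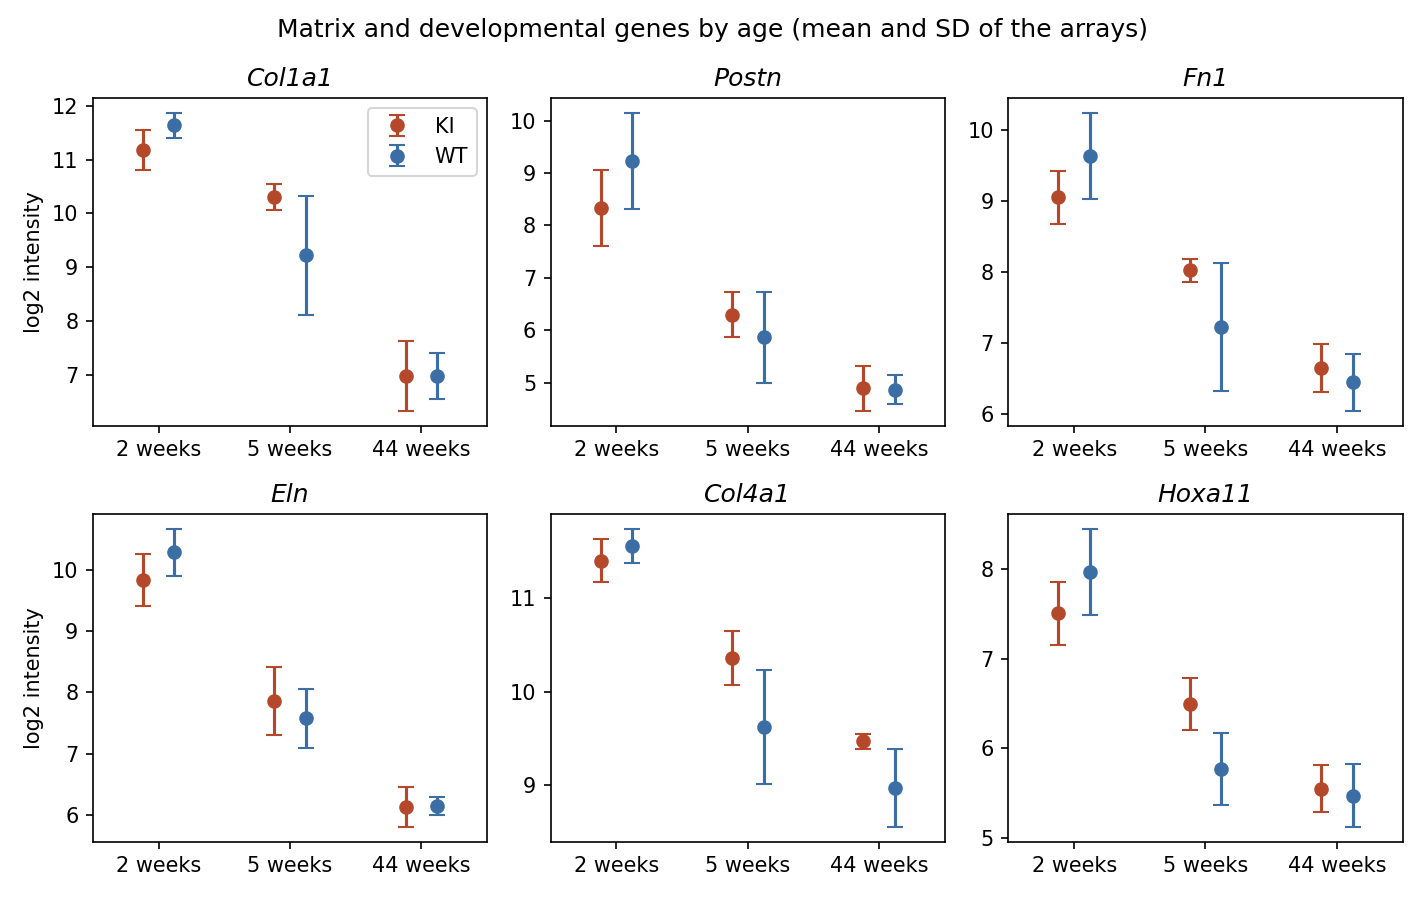
Mean log2 intensity with SD (y axis) of 6 genes at 2, 5 and 44 weeks (x axis), KI red and WT blue (n = 4 each, 5 for WT at 5 weeks). In these 6 genes the KI mean lies below WT at 2 weeks and above it at 5 weeks, as in Col1a1 with differences of -0.46 and 1.09. The level drops with age in both genotypes. At 2 weeks the arrays overlapped in all 6, and at 5 weeks Postn, Eln and Fn1 did not pass. Not all matrix genes cross in this way: Lox differed by -0.61 at 2 weeks and -0.63 at 5 weeks.

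The difference of the genotype effect between the ages was tested directly. The KI minus WT difference at 2 weeks differed from that at 5 weeks in 3 genes (0.0251%; limma adjusted p under 0.05), and 2242 genes (18.7%) had an unadjusted p under 0.05. All 3 were lower at 2 weeks relative to 5 weeks. For Mri1, an enzyme of methionine salvage, the KI arrays were 7.48, 7.85, 7.49 and 7.61 and the WT arrays 8.26, 7.68, 7.73 and 7.93 at 2 weeks, a difference of -0.29 against 1.32 at 5 weeks (difference of differences -1.62, adjusted p = 0.013). Trip10, a Cdc42 effector that bends membranes, differed by -0.21 at 2 weeks and 0.92 at 5 weeks (-1.13, adjusted p = 0.034), and Tdp1, a DNA repair phosphodiesterase, by -0.18 and 1.16 (-1.35, adjusted p = 0.034). Of the 24 collagen genes 10 had an unadjusted p under 0.05, all lower at 2 weeks relative to 5 weeks, and 0 passed. Leaving out single 2-week arrays gave 0 to 2 genes in place of 3: 0 without KI array 19 or 21, 2 without WT array 2, and 1 without any one of KI arrays 20 and 22 and WT arrays 1, 3 and 5. Against 44 weeks 0 genes passed in limma, and 359 (3.00%) had an unadjusted p under 0.05.

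Tubule transcripts were mostly above the WT level in KI, while the means of endothelial genes overlapped between the groups. Of 23 proximal tubule genes 21 were above 0 and 2 below (median 0.64), of 31 genes of the loop, distal tubule and collecting duct 30 were above and 1 below (median 0.48), and of 26 endothelial genes 21 were above and 5 below (median 0.26). None of these passed at 2 weeks. The proximal list averaged 9.32, 8.89, 9.13 and 9.58 in KI and 8.30, 8.49, 8.71 and 8.88 in WT. All 4 KI arrays were above the WT arrays, KI array 20 only just. The endothelial list averaged 7.44, 7.03, 7.15 and 8.01 in KI and 7.49, 6.96, 6.74 and 7.08 in WT, so WT array 1 was above 3 of the KI arrays. The endothelial median was 0.06 without KI array 22, 0.04 with the dimmest 50% of genes dropped and -0.07 with the tubule marker covariate. Without WT arrays 1 and 2 the medians of the proximal, distal and endothelial lists were 0.41, 0.42 and 0.49. Leukocyte genes had a median of 0.17, with 14 of 17 above 0. Of the 74 named genes followed through the alternatives, 36 had a difference that was smaller by over 1.5 times, 0 or of the other sign with the tubule marker covariate, and 26 with the Gapdh covariate. The tubule marker mean is taken over the proximal and distal lists. Smaller differences of its own members among the 74, such as Keg1, Atp6v1b1, Slc26a4 and Egf, therefore follow in part from how it was built.

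Several genes of these lists were among those with the largest differences. Ttr, transthyretin, had 10.53, 10.90, 10.90 and 10.50 in KI and 8.39, 7.24, 10.40 and 7.20 in WT (2.40 ± 0.85, limma adjusted p = 0.89), so WT array 3 was close to KI and the other WT arrays were far below. Atp6v1b1, a proton pump subunit of intercalated cells, had 8.32, 7.22, 7.80 and 9.16 in KI and 7.05, 5.88, 6.36 and 7.06 in WT (1.54 ± 0.45), and Slc26a4, the chloride exchanger pendrin of the same cells, differed by 1.03 ± 0.34. Keg1 had 11.41, 11.33, 11.73 and 11.49 in KI and 8.66, 10.76, 11.28 and 11.16 in WT, where WT array 1 was far below the rest (1.02 ± 0.41). The distal tubule genes Egf and Calb1 differed by 0.64 ± 0.20 and 0.60 ± 0.26. Flt1, the VEGF receptor 1 of endothelium, had 6.52, 6.24, 6.14 and 8.74 in KI and 5.84, 5.84, 4.88 and 5.81 in WT (1.32 ± 0.49), with KI array 22 far above the others, and Pecam1, an endothelial adhesion molecule, differed by 0.80 ± 0.27. Among large differences outside the lists, Bcat1, a transaminase of branched-chain amino acids, had 9.56, 8.25, 8.70 and 8.51 in KI and 5.46, 5.73, 8.01 and 7.83 in WT (2.00 ± 0.83), with WT arrays 1 and 2 far below WT arrays 3 and 5. Ehf, an epithelial Ets factor, differed by 1.01 ± 0.31.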

How the data were processed

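Polysomal RNA was amplified with the NuGEN WT-Ovation kit and biotin-labelled, per the labels' protocols, and hybridised to an Affymetrix mouse array of perfect-match probes. The authors deposited 1 log2 value per probe set and array. Their summary and normalisation steps are not given in the sources used here. Medians of the 25 arrays differ by at most 0.17. The number of arrays, not depth, limits the precision.

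Of 45141 probe sets, 28898 had 1 gene symbol in the platform annotation, 551 had several, 15588 were not named there and 104 were controls. Entrez identifiers gave current symbols for 99.3% of them. Each of 17097 genes was represented by its probe set of highest mean over the 25 arrays, and the dimmest 30% of genes by mean were dropped, leaving 11968. Groups were taken from titles. Limma 3.58.1 in R 4.3.3 fitted 6 group means to the 25 arrays (lmFit, eBayes) with 19 residual degrees of freedom, and the threshold was an adjusted p of 0.05 (Benjamini-Hochberg over all genes). The procedure was tested on simulated data with independent normal errors. These held no differences in sex, tubule RNA or RNA quality, so that test does not bear on such differences here. Differences are log2 with moderated SE. Lists are described by counts and medians, with no test.

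Named genes follow a rule: Actn1, Col1a1 and the Gadd45 family; the 12 smallest p and the 12 largest non-overlapping differences each way; up to 4 genes per list by p; genes within 20 Mb of Actn4 with p under 0.01; and the leading differences between ages. Predicted genes were replaced by the next named gene, and the text gives a part. The members, lists and tests were chosen with earlier results of these data known. Alternatives changed the scaling, filter, probe-set rule, prior, array weights, covariates and arrays used. Actn4 was not analysed here.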

Additional observations from a re-analysis of the deposited data

Results flagged for a closer look

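In groups of 4, a single array stood far from the others in 14 of 214 groups looked at, by a gap rule that chance alone meets in about 1 in 20 groups. The figure given is that array's gap to its nearest neighbour over the whole range of its group. In KI at 2 weeks, array 22 was the highest in Flt1 (0.851) and the lowest in Hoxa11 (0.911), Col16a1 (0.831) and the mean of the basement membrane genes (0.833). KI array 20 was the highest in Tcf21 (0.844), in the mean of the podocyte development regulators (0.926) and in the sex-linked genes (0.98), where it was the only KI array with a high Y-linked signal. KI array 19 was the lowest in Pdxdc1 (0.941).

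In WT at 2 weeks, array 1 was the lowest in Irx2 (0.903) and the mean of the parietal epithelium genes (0.935) and the highest in Gadd45a (0.83). WT array 2 was the highest in the mean of the proliferation genes (0.896), WT array 3 the lowest in Flt1 (0.962) and WT array 5 the highest in F13b (0.839). No cause was tested for any of these arrays.

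The genotype difference at 2 weeks was below that at 5 weeks, by the test of the difference itself, in Mri1 (-1.62), Tdp1 (-1.35) and Trip10 (-1.13). After quantile normalization 1 gene passed this test.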

How the results depend on the processing

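No gene passed at 2 weeks under any alternative with all 8 arrays, under the added fit of every probe set, or without WT arrays 1 and 2 with or without KI array 22. Leaving out single arrays gave 0 to 1 genes, the 1 being Gadd45g without KI array 20 (1.77, adjusted p = 0.031). That array was the lowest KI array for Gadd45g and the only KI array with a high Y-linked signal. Without it sex and genotype cannot be told apart at 2 weeks. The lowest adjusted p ran from 0.031 to 1. Genes with an unadjusted p under 0.05 numbered 613 in the fit reported, 350 with the tubule marker covariate, 1401 with sex, 1690 over every probe set, 174 without WT arrays 1 and 2 and 83 when KI array 22 was left out too. Leaving out single arrays gave 286 to 1083, with 286 without KI array 22, 295 without WT array 1 and 1083 without WT array 3. The difference between 2 and 5 weeks held 1 gene after quantile normalization, 6 with sex as a covariate, and 0 to 2 without single 2-week arrays. Genes with non-overlapping arrays numbered 507 to 1011 without single arrays, against 347. Their share near Actn4 was above that of all genes in each of these settings, with the smallest excess without WT array 3 (11.0% against 8.04%) and KI array 20 (11.8% against 8.45%).

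Of 1539 values of 74 named genes under 21 alternatives, 1514 did not change sign. The tubule marker covariate turned Gadd45b (0.19), Actn1 (-0.15), Lama1 (-0.19), Sptbn1 (-0.05), Lcp1 (-0.44), Myh9 (-0.23), Myo6 (-0.10) and Lama3 (-0.26). The Gapdh covariate turned Tdp1 (0.10), and the mean of all probe sets turned Pdxdc1 (0.29). Without WT arrays 1 and 2, chosen after seeing the data, Irx2 was at -0.01, Lox at 0.09, Mfap2 at 0.16, Nid1 at 0.01 and Pxdn at 0.01. Without KI array 22 as well, Hoxa11 was at 0.10, Irx2 at -0.02, Postn at 0.01, Col16a1 at 0.09, Lox at 0.18, Fn1 at 0.11, Mfap2 at 0.32, Nid1 at 0.08, Pxdn at 0.16 and Kirrel at 0.07. The cause was not tested. No paired analysis was possible because the numbers in the titles are unique to each array. Signal over background could not be judged from 1 value per probe set.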

Other observations

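The 3 probe sets of Pdxdc1 did not move together. The brightest had 4.72, 9.23, 9.19 and 8.96 in KI and 9.93, 9.79, 9.45 and 9.32 in WT, so KI array 19 alone was far below the others. A second probe set had 10.45, 9.59, 9.89 and 9.61 in KI and 6.49, 6.54, 9.80 and 9.88 in WT, so WT arrays 1 and 2 were low there. In the 17 arrays of 5 and 44 weeks the second probe set also took either a high or a low value, between 9.58 and 10.63 in some and between 6.62 and 7.34 in the others, in both genotypes. KI array 19 was highest of the 8 in the second probe set and lowest in the first. No test was made of this pattern, which was noticed in the data.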
